A study of Mus musculus with 12 samples.

Results

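The genes described here are 8 that mark astrocytes: Gfap, Aqp4, Slc1a2, Slc1a3, S100b, Glul, Gja1 and Vim. They were taken by gene symbol, and all 8 of the 27827 gene names on the array were found, through 20 of its 41174 probes. The tissue was whole hypothalamus from male ICR mice, an outbred stock, read on 12 Agilent 1-color arrays. There were 4 groups of 3 RNA pools: mice given water in both drinking tubes, and low, early high and late high alcohol drinkers, whose cages held a tube of 5% or 10% alcohol beside a tube of water. Mice entered at 3 weeks of age, had water only up to day 5 and were killed on day 51 by one label and day 57 by another. The 9 water mice made 3 pools of 3 and the 19 alcohol mice made 9 pools of 1 to 3, so each replicate is a pool, and the labels give neither the alcohol solution nor the number of mice of a single alcohol pool. The study's supplement lists the make-up of the pools, which was not used here. In that list the pools of less alcohol consumption held more mice each than those of more. The main fits gave every pool the same weight, and pool size and drinking cannot be told apart. Low, early high and late high name how the mice drank, which was not assigned to them. P-values measure the spread between these pools. Fewer astrocytes cannot be told apart from less RNA per astrocyte in bulk tissue.

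Astrocytes clear glutamate and potassium from around synapses, pass glutamine back to neurons, line vessels with water channels and join each other through gap junctions. In the hypothalamus their processes also surround neurons that regulate feeding, water balance and hormone release, next to tanycytes, the radial glia-like cells of the ventricle wall, which share Vim, Slc1a3 and S100b with astrocytes. Gfap and Vim are intermediate filament proteins whose messages are known to increase in reactive astrocytes.

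Each member was measured by oligonucleotide probes of 60 bases, and 4 of them are shown: the only one for S100b, a pair for Slc1a2 that names different transcripts, and one for Glul. Positions are those of mouse build mm9 in the array files, and sequences are 5′ to 3′ in the sense of the transcript. The only probe of S100b lies at chr10:75722709-75722768 on the plus strand, and its capitals mark the codons that match the calcium-binding loop pattern of EF-hand proteins (PROSITE), found in a forward frame of 0.0267% of the 41174 probes. The Slc1a2 probes at chr2:102617706-102617765 and chr2:102617801-102617860, on the plus strand with 35 bases between them, are assigned to different transcripts of the glutamate transporter. In the latter the capitals mark the in-frame stop codon, after which 9 bases are not coding. The Glul probe at chr1:155751765-155751824 on the plus strand is one of 3 for glutamine synthetase.
S100b A_51_P208083: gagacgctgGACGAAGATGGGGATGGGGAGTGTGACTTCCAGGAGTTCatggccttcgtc
Slc1a2 A_52_P168496: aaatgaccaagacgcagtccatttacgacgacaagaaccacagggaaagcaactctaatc
Slc1a2 A_51_P477875: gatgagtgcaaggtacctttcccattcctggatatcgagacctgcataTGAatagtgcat
Glul A_52_P143866: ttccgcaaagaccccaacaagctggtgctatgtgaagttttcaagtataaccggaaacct

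Values are scaled log2 intensities, that is log2 of the background-corrected signal minus the 75th percentile of its array, so 0 is the signal that 75% of spots stay under and a difference of 1 is a doubling. They are compared only within a probe, since signal also depends on the probe, except where probes are averaged or summed. The probe with the highest mean represents a gene, and all 8 such probes were well above background on all 12 arrays. Between 67.0% and 79.3% of the spots of an array were well above background, none was saturated, and the number of arrays limits the precision. Slide 1 held the 3 water pools and low pool 1 and was scanned on a later day. Slide 2 held low pools 2 and 3 with early high pools 1 and 2, and slide 3 held early high pool 3 with the late high pools. Water and alcohol can therefore be compared within a slide only through low pool 1. Of 18 hypothalamic marker genes, 16 had a tested probe and 15 of these were well above background on all 12 arrays.

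No astrocyte gene passed an adjusted p of 0.05 in any of the 7 comparisons. By the brightest probe of each gene, the late high drinkers had the highest mean of the 4 groups for Gfap, Aqp4, Slc1a3, Glul, Gja1 and Vim, and the lowest for S100b. The Slc1a3 values of the late high pools lay above those of all water, low and early high pools. S100b was lower in 8 of 9 alcohol pools than in any water pool. These differences were under 0.25 on the log2 scale, and by the same probes none of the intervals for alcohol against water reached past 1.30-fold in either direction.

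**Figure D1:**
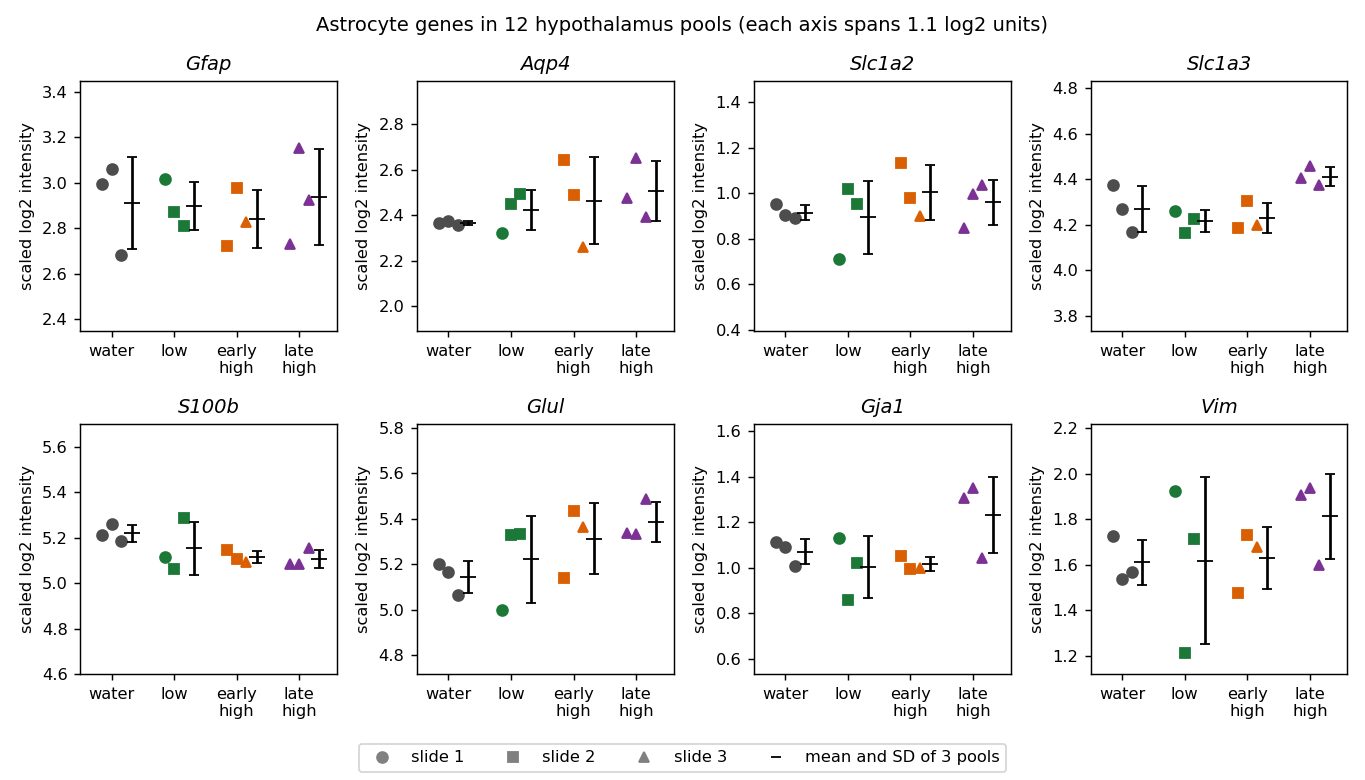
Scaled log2 intensity (vertical axis) of the 8 genes in the 12 pools, by group; shapes give the slide, and bars the mean and SD of 3 pools. The late high pools of Slc1a3 lie between 4.37 and 4.46 and the other 9 pools between 4.16 and 4.37.

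Slc1a3 encodes GLAST, a sodium-dependent glutamate transporter of astrocytes and of radial glia. Its probe (chr15:8584236-8584295, minus strand) gave 4.37, 4.27 and 4.17 in the water pools and 4.26, 4.16 and 4.23 in the low pools. The early high pools had 4.19, 4.30 and 4.20 and the late high pools 4.40, 4.46 and 4.37. The late high pools were thus above every other pool, by a margin under 0.01 over water pool 1, while the other groups overlapped. The means were 4.27 ± 0.10 (SD, n = 3) in water, 4.22 ± 0.050 in low, 4.23 ± 0.065 in early high and 4.41 ± 0.042 in late high drinkers. From high to low the order was late high, water, early high and low, and only the step from late high to water, 0.14, was larger than the SD within groups of 0.069. Late high exceeded early high by 0.18 (SE 0.066, 95% interval 0.034 to 0.33), with an unadjusted p of 0.0209 and an adjusted p of 0.354 in limma. On slide 3 alone the late high pools averaged 0.21 above early high pool 3, and all 3 were above it. An exact permutation test over all 369600 ways to divide the pools into the 4 groups gave p = 0.0433 for Slc1a3 (1-sided on the spread between groups), and limma's F test gave p = 0.0507 and an adjusted p of 0.348. The other 2 probes of Slc1a3 did not follow the first, with r of -0.21 for A_51_P333324 and -0.43 for A_52_P378975 over the 12 arrays. Their late high minus early high differences were 0.032 (SE 0.21) and -0.13 (SE 0.14), so the separation of the late high pools rests on the brightest probe.

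Slc1a2 encodes GLT-1, which carries most glutamate uptake in the forebrain. The water pools had 0.95, 0.90 and 0.89, and the low pools 0.71, 1.02 and 0.95. Values of 1.13, 0.98 and 0.90 were found in the early high pools and of 0.85, 1.00 and 1.04 in the late high pools. Each alcohol group held pools above and below a water pool, and the group means ran from 0.89 ± 0.16 (SD, n = 3) in low to 1.00 ± 0.12 in early high drinkers. No step between neighbouring groups was larger than the SD within groups, 0.11. The lowest pool, low pool 1, was the alcohol pool that shared the slide of the water pools, and it was 0.20 below their mean. The other Slc1a2 probe shown above, A_51_P477875, gave an alcohol minus water difference of 0.11 beside 0.037 for the first. Whether these probes read separate transcripts was not tested. Another probe, A_52_P178651, had the lowest unadjusted p of the 19 tested member probes: it was 0.30 lower in late than in early high drinkers (SE 0.087, unadjusted p = 0.00649, adjusted p = 0.324 in limma), while the first probe differed by -0.043. For late high against water, A_52_P178651 differed by -0.23 (SE 0.087, unadjusted p = 0.0248 in limma) and the first probe by 0.046.

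Glul, glutamine synthetase, turns the glutamate taken up into glutamine. Its probe (chr1:155756750-155756809, plus strand) gave 5.20, 5.16 and 5.07 in the water pools and 5.00, 5.33 and 5.33 in the low pools. Early high pools were at 5.14, 5.44 and 5.37 and late high pools at 5.34, 5.33 and 5.49. The late high pools were all above the water pools, and 7 of 9 alcohol pools were. From low to high the means were in the order water (5.14 ± 0.069, SD, n = 3), low (5.22 ± 0.19), early high (5.31 ± 0.16) and late high (5.38 ± 0.088), with no step above the SD within groups of 0.14. Alcohol exceeded water by 0.16 (SE 0.091, 95% interval -0.035 to 0.36, unadjusted p = 0.0983, adjusted p = 0.819 in limma), and late high exceeded water by 0.24 (SE 0.11, unadjusted p = 0.0512, adjusted p = 0.322). Low pool 1, on the slide of the water pools, was 0.14 below their mean instead, and 64.8% of the variance of Glul lay between slides against 40.7% between groups. Its other probes, A_51_P441798 and A_52_P143866, gave alcohol minus water differences of 0.16 each.

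Aqp4 is the water channel of astrocyte endfeet. The water pools had 2.37, 2.37 and 2.36, and the low pools 2.32, 2.45 and 2.49. In the early high pools it was 2.64, 2.49 and 2.26, and in the late high pools 2.47, 2.65 and 2.39. The water pools lay close together, with an SD of 0.0072, and the late high pools were all above them. The early high pools spread over more than the difference between any groups, with an SD of 0.19. The means were 2.37 in water, 2.42 in low, 2.46 in early high and 2.51 ± 0.13 (SD, n = 3) in late high drinkers, and no step exceeded the SD within groups of 0.12. On slide 3 the late high pools averaged 0.25 above early high pool 3. A second probe of Aqp4, A_52_P625527, correlated with the first at r = 0.76 over 12 arrays, but the remaining one, A_52_P25710, at r = 0.31 with a late high minus water difference of -0.16 (SE 0.13).

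Gja1 encodes connexin 43, the main gap junction protein of astrocytes. Its probe (chr10:56109814-56109873, plus strand) was printed 10 times on each array, so its error within an array is known. The water pools had 1.11, 1.09 and 1.01, and the low pools 1.13, 0.86 and 1.02. Early high pools were at 1.05, 1.00 and 1.00 and late high pools at 1.31, 1.35 and 1.04. Late high pools 1 and 2 stood above all other pools, and late high pool 3 lay among them. Late high exceeded early high by 0.22 (SE 0.094, 95% interval 0.0075 to 0.43, unadjusted p = 0.0437, adjusted p = 0.400 in limma), and without late high pool 3 by 0.31. The exact permutation test of 3 against 3 pools gave p = 0.2, where 0.1 is the smallest it can give. The SD of the 10 spots was 0.029 to 0.065 in each pool, against an SD of 0.14 over the 12 pools. The means were 1.23 ± 0.17 (SD, n = 3) in late high, 1.07 ± 0.057 in water, 1.02 ± 0.032 in early high and 1.00 ± 0.14 in low drinkers, and the step from late high to water, 0.16, was the only one larger than the SD within groups of 0.11.

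**Figure D2:**
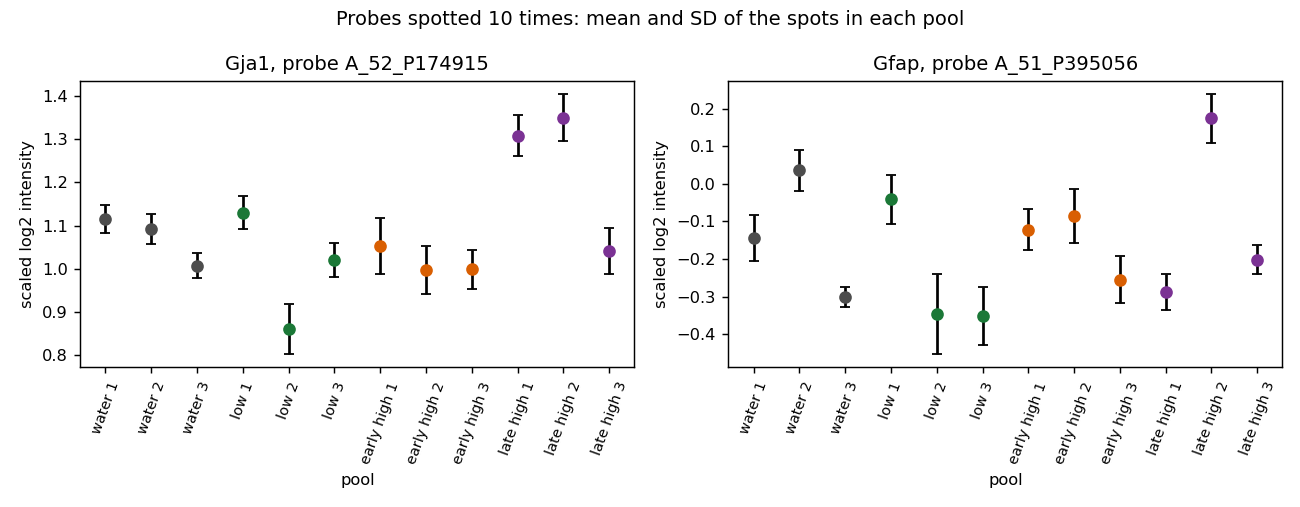
Scaled log2 intensity (vertical axis) in the 12 pools for the Gja1 and Gfap probes printed 10 times per array; points are means and bars SDs of the spots, and colors mark the groups. Late high pools 1 and 2 are at 1.31 and 1.35 for Gja1, and late high pool 2 is the highest pool for both.

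Gfap, the filament protein most used as a marker of astrocytes, had no order among the groups larger than its spread. The probe at chr11:102751813-102751872 on the minus strand gave 2.99, 3.06 and 2.68 in the water pools and 3.02, 2.87 and 2.81 in the low pools. The values were 2.72, 2.98 and 2.83 in early high pools and 2.73, 3.15 and 2.93 in late high pools. All groups overlapped. The means ran from 2.84 ± 0.13 (SD, n = 3) in early high to 2.94 ± 0.21 in late high drinkers, a range of 0.095 against an SD within groups of 0.17. The 10 spots of a second Gfap probe, A_51_P395056, differed by SDs of 0.026 to 0.11 within a pool, and it correlated with the first at r = 0.80 over 12 arrays. With all probes of Gfap averaged, its late high minus water difference was -0.11 in place of 0.025, and its late high minus early high difference -0.079 in place of 0.095.

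Vim, vimentin, is a filament protein of immature and reactive astrocytes, tanycytes, vessels and meninges. The probe at chr2:13504232-13504291 on the plus strand gave 1.72, 1.54 and 1.57 in the water pools and 1.93, 1.21 and 1.72 in the low pools. Those of early high pools were 1.48, 1.73 and 1.68 and those of late high pools 1.91, 1.94 and 1.60. The low pools had an SD of 0.37 (n = 3), the widest of any group among the 8 genes, and contained both the lowest pool of Vim and the next to highest. The means were 1.61 in water, 1.62 in low, 1.63 in early high and 1.81 ± 0.19 in late high drinkers, with no step above the SD within groups of 0.22. The other Vim probe had no signal above the signal/noise limit on any array.

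S100b encodes a calcium-binding protein of astrocytes. Its only probe, shown above, gave 5.21, 5.26 and 5.18 in the water pools and 5.12, 5.06 and 5.28 in the low pools. In early high pools it was 5.15, 5.10 and 5.09, and in late high pools 5.08, 5.09 and 5.15. All early and late high pools were below all water pools, and low pool 3 was the highest of the 12. The means were 5.22 ± 0.038 (SD, n = 3) in water, 5.15 ± 0.12 in low, 5.12 ± 0.028 in early high and 5.11 ± 0.039 in late high drinkers, with no step above the SD within groups of 0.066. The alcohol minus water difference of S100b was -0.093 (SE 0.050, 95% interval -0.20 to 0.017, unadjusted p = 0.0899, adjusted p = 0.819 in limma). With each of the 220 choices of 3 pools taken as water, an exact permutation test gave a 2-sided p = 0.0364 for S100b, before any correction for the 8 genes so tested. Within slide 1, low pool 1 was 0.10 below the mean of the water pools. S100b varied little: its SD over the 12 arrays was 0.073, and of 29517 probes measured on all arrays 10.7% had a lower one.

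The comparison of the 9 alcohol pools with the 3 water pools asks whether drinking as such went with another level of astrocyte messages. The differences of the 8 genes ran from -0.093 for S100b to 0.16 for Glul, with 6 higher and 2 lower, and a median of 0.027 beside 0.027 for all 32371 probes tested. None of the 8 passed the adjusted threshold in limma, as for 0% of all probes, none had an unadjusted p under 0.05 (5.52% of probes), and none had groups that did not overlap (1.31%). For the brightest probe of each gene the intervals of the fit without slide reached at most 0.38, for Vim, and those of some dimmer probes reached further, to 0.94 for Slc1a2 A_52_P311194, which was well above background on 5 arrays, 0.56 for Glul A_51_P441798 and 0.43 for Slc1a3 A_51_P333324. With slide as a fixed block, where low pool 1 alone links alcohol to water, the difference of Glul became -0.14, that of Slc1a2 -0.20 and that of Gfap 0.10.

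The low drinkers were then set against water. The 8 differences lay between -0.068 for Gja1 and 0.078 for Glul, with a median of -0.017 beside 0.044 for all probes. No member passed the adjusted threshold (0.179% of probes) or an unadjusted p under 0.05 in limma (9.14%), and none had groups apart (9.05%). Early high drinkers differed from water by -0.10 for S100b to 0.17 for Glul, with a median of -0.011 beside 0.022 for all probes. Again no member passed the adjusted threshold in limma (0% of probes) or an unadjusted p under 0.05 (4.81%), and the groups did not overlap for S100b alone of the 8 (16.4% of probes).

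The differences of late high drinkers from water ran from -0.11 for S100b to 0.24 for Glul, with 7 genes higher and 1 lower, and the median was 0.14 beside 0.0041 for all probes. No gene passed the adjusted threshold in limma (0% of probes) or an unadjusted p under 0.05 (15.7%). The groups did not overlap for Aqp4, Slc1a3, Glul and S100b, 4 of 8 genes, where 26% of all probes were so separated. All late high pools were on slide 3 and all water pools on slide 1, so slide and group cannot be told apart here except through the pools of the other groups. With slide as a fixed block the difference of Glul became -0.17 and that of Slc1a2 -0.066, and with scan day as a block Glul had -0.089, Slc1a2 -0.22 and Aqp4 -0.0087. Without scaling between arrays the median of all probes moved from 0.0041 to 0.13 and that of the 8 genes to 0.27, and 4 of the 8 had an unadjusted p under 0.05. The mean of all probes of a gene in place of the brightest one gave a median of 0.020 for the 8 genes, and without late high pool 2 it was 0.086.

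**Figure D3:**
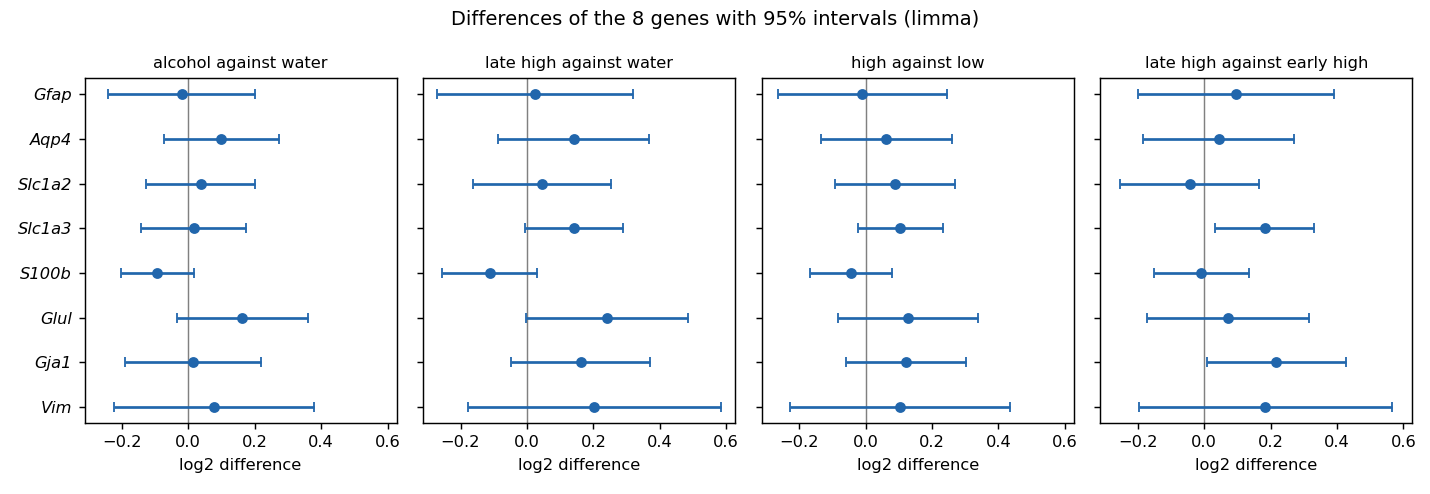
Log2 differences (horizontal axis) of the 8 genes with 95% intervals from limma in 4 comparisons. Intervals exclude 0 for Slc1a3 and Gja1 in late against early high drinkers, before adjustment, and include it elsewhere.

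Among the drinkers, the 6 high pools were set against the 3 low pools. The differences lay between -0.043 for S100b and 0.13 for Glul, with 6 genes higher and a median of 0.097 beside -0.056 for all probes. No gene passed the adjusted threshold in limma (0.0744% of probes) or an unadjusted p under 0.05 (15.5%), and none had groups apart (4.62%). The median of the 8 genes was 0.033 without low pool 1, 0.063 without low pool 2 and -0.0079 with all probes of a gene averaged. With weights estimated for each array, Slc1a3, S100b and Gja1 passed in this comparison together with 12748 of the 32241 probes tested, but those weights gave low pool 3 a weight of 42.5 and the other arrays 0.27 to 1.82, so that 1 pool stood for the low drinkers.

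Late against early high drinkers compares mice by when their intake was high. Slc1a3 and Gja1, given above, were the 2 of 8 genes with an unadjusted p under 0.05 (12.2% of probes), both higher in the late high pools, and no gene passed the adjusted threshold in limma (0% of probes). The groups did not overlap for Slc1a3 alone (21.5% of probes). The median of the 8 genes was 0.083 beside -0.032 for all probes, and 6 were higher. Over all 4 groups, limma's F test gave no gene with an adjusted p under 0.05 (0.00633% of probes) or an unadjusted p under 0.05 (14.4%).

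How the 8 genes varied together from pool to pool was described with slide means left in and taken out. Since the groups lie largely within slides, taking out slide means also takes out differences between groups. Of their 28 pairs, 12 correlated below 0 over the 12 arrays and 5 above 0.5, with a median r of 0.041, as a description over arrays that share slides. With slide means taken out, 6 pairs were below 0 and 6 above 0.5, with a median r of 0.25. The highest values over the arrays as they stand were 0.80 for Slc1a3 with Gja1, 0.79 for Gja1 with Vim and 0.67 for Slc1a3 with Vim, and these became 0.70, 0.71 and 0.55 with slide means taken out. The highest value was then that of Aqp4 with Gja1, 0.82 against 0.36 before, and Aqp4 with Slc1a3 had 0.57 against 0.27. Slc1a2 went against Vim (r = -0.54). Averaged over the 8 genes, each centred on its own mean, late high pool 2 was highest at 0.15 and water pool 3 lowest at -0.10, next to low pool 2 at -0.095. Late high pool 2 was above the median for 7 of the 8 genes, S100b being the exception.

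**Figure D4:**
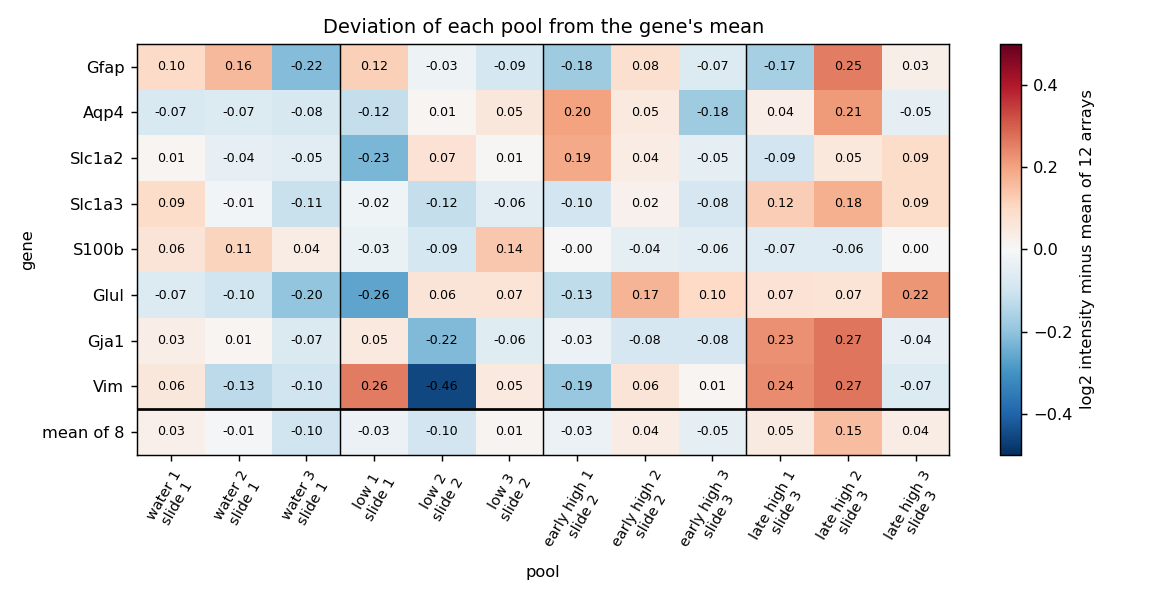
Log2 intensity of each gene (rows) in each pool (columns) minus the gene's mean over 12 arrays, with the mean of the 8 genes in the last row. Late high pool 2 has the highest mean, 0.15, and low pool 2 the lowest single value, for Vim.

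For each gene the profiles most like it were sought among 21797 named probes well above background on all arrays, so high correlations are in part a matter of selection. For Slc1a3 they were Zfp777, Radil and Spns2, with r of 0.95 to 0.96 over 12 arrays. For Gja1 they were Kdm3b, Gdpd1 and Zfyve9 (0.92 to 0.94), and for Gfap Pyroxd2, the chloride channel Clcn2 and the ecto-ATPase Entpd2 (0.85 to 0.89). Vim was most like Nid1, a basement membrane protein, Atp8a1 and Carmil1 (0.90 to 0.91). Slc1a2 was most like Nfyb, Tspyl4 and the synaptic vesicle protein Syt1 (0.92 to 0.94), and Glul like Zfp664 and Tomm70a (0.89 to 0.91). Aqp4 was most like Atpaf2 and Grb7 (0.88 to 0.90), and S100b like Ppp6c, Rps6 and Rras2 (0.83 to 0.87). None of the genes so named was another of the 8 members.

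Other genes of astrocyte function gave the same count of calls. Of 30 other astrocyte markers, 29 tested genes of a reactive astrocyte list, 15 genes of glutamate and glutamine handling, 11 of the endfoot and dystrophin complex, 10 intermediate filaments, 8 of the S100 family, 6 glial gap junction genes and 12 tanycyte markers, none passed an adjusted p of 0.05 in limma in any comparison. Among the other astrocyte markers, 3 were higher and 5 lower in late high drinkers than in water at an unadjusted p under 0.05 (15.7% of all probes), with a median of 0.051. Beside the genes below, and named after their values were seen, Aldoc and Ttyh1 were among the former and Atp1b2, Cldn10 and Slc25a18 among the latter. Slc6a11, the GABA transporter GAT-3, had 2.36 ± 0.13 (SD, n = 3) in water, 2.29 ± 0.13 in low, 2.20 ± 0.069 in early high and 1.98 ± 0.050 in late high drinkers (late high minus water -0.37, adjusted p = 0.123 in limma). Fgfr3, a growth factor receptor of astrocytes, had 1.68 ± 0.13 in water and 1.98 ± 0.043 in late high drinkers (0.31, adjusted p = 0.141). The most separated genes of this list thus lay on opposite sides of water.

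Among the reactive astrocyte genes, none was higher and 4 were lower in late high drinkers than in water at an unadjusted p under 0.05 (15.7% of all probes, in either direction), and none was higher and 7 were lower than in early high drinkers (12.2%). The list's medians were -0.13 and -0.17, beside 0.0041 and -0.032 for all probes. Timp1 and Ptx3, named after their values were seen, had -0.37 and -0.50 against water. S1pr3, a sphingosine-1-phosphate receptor, had -1.61 ± 0.052 (SD, n = 3) in water, -1.56 ± 0.030 in low, -1.59 ± 0.20 in early high and -2.03 ± 0.082 in late high drinkers (late high minus water -0.42, adjusted p = 0.115 in limma). Tm4sf1, a membrane protein that endothelium also makes, had 1.41 ± 0.026 in water and 1.20 ± 0.058 in late high drinkers (-0.21, adjusted p = 0.150). Gfap and Vim, the filament genes of that state, had late high minus water differences of 0.025 and 0.20.

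In the glutamate list, 7 of 15 genes were higher and 8 lower in late high drinkers than in water, with a median of -0.028. Slc7a11, the cystine-glutamate exchanger, had -1.05 ± 0.075 (SD, n = 3) in water and -1.44 ± 0.15 in late high drinkers (-0.39, adjusted p = 0.176 in limma), and Glud1, glutamate dehydrogenase, 5.60 ± 0.011 and 5.52 ± 0.078. At an unadjusted p under 0.05 in limma the list held 1 lower gene, Slc7a11, and 1 higher, Slc17a7 (15.7% of all probes). Slc17a7, a vesicular transporter of neurons, was named after its values were seen and was well above background on 5 arrays. Of the other connexins, Gjb1, which oligodendrocytes make, had a late high minus water difference of -0.071 (adjusted p = 0.906 in limma) and a low minus water difference of 0.52 (adjusted p = 0.523). Gjb6, the connexin 30 of astrocytes, named after its values were seen, had a late high minus water difference of 0.19 (adjusted p = 0.384), beside 0.16 for Gja1. Of the 6 genes of the gap junction list, however, 2 were higher and 4 lower in late high drinkers than in water, with a median of -0.074. At an unadjusted p under 0.05 in limma, 1 of them was lower and none higher (15.7% of all probes). Against early high drinkers the list's median was -0.31, with 2 lower and none higher at that threshold (12.2%).

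In the endfoot list Dag1, dystroglycan, had a late high minus water difference of 0.12 and Sntb1, a syntrophin, of -0.27. In the filament list Des, desmin of muscle and pericytes, had 0.32 and Prph, peripherin of neurons, 0.079. In the S100 list S100a16 had -0.29 and Ager, a receptor for S100b that was well above background on 10 arrays, 0.33. The tanycyte markers were split, with 6 of 12 higher, 6 lower and a median of 0.0046. At an unadjusted p under 0.05 in limma, 3 of them were higher and 2 lower in late high drinkers than in water (15.7% of all probes). Rax, a transcription factor, had 0.77 and Vcan, versican, 0.36. At an unadjusted p under 0.05 the list also held Dio2 (0.47), Gpr50 (-0.66) and Crym (-0.52), named after their values were seen. The adjusted p-values of these 11 genes for late high against water in limma were 0.183 to 0.813. In low drinkers against water, Des differed by 1.23, Ager by 1.16 and Prph by 0.38 (adjusted p = 0.467, 0.399 and 0.506 in limma). The low pools of Des and Ager were far apart, with SDs of 1.01 and 0.78 against 0.081 and 0.069 in water. Low pool 2 also stood apart among dim spots, where the signal that 25% of its spots stay under was 63.2, against 22.3 to 34.0 on the other arrays.

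Markers of other cell types were summed by signal, relative to the mean of 12 arrays. The brightest probes weigh most in such a sum. Among the 8 astrocyte genes these were Glul, S100b and Slc1a3, with means of 5.27, 5.15 and 4.28 over the 12 arrays. All 10 neuron markers were well above background on every array, and their sum lay between 0.97 and 1.04 in water, 1.00 and 1.02 in low, 0.98 and 1.00 in early high and 0.97 and 1.03 in late high pools. The 8 astrocyte genes gave 0.93 to 1.01 in water, 0.94 to 1.04 in low, 0.95 to 1.04 in early high and 1.02 to 1.06 in late high pools. The 30 other astrocyte markers had means of 0.975 in water, 1.00 in low, 1.02 in early high and 1.00 in late high pools, and the reactive astrocyte genes 0.994, 1.03, 1.03 and 0.948. The 4 oligodendrocyte precursor markers were also highest in the late high pools, with a mean of 1.09 against 0.85 to 1.07 in the other pools. The 10 oligodendrocyte markers lay at 0.89 to 0.98 in water and 0.96 to 1.12 in late high pools. The 4 blood markers lay at 1.03 to 1.27 in water and 0.64 to 0.88 in late high pools, and the 5 pituitary markers at 0.58 to 2.22 in water, 1.23 to 1.68 in low, 0.16 to 0.60 in early high and 0.70 to 1.15 in late high pools. The 6 choroid plexus markers lay at 0.933 to 1.20 in water and 0.830 to 0.933 in late high pools. The 11 mural and meningeal markers lay at 0.93 to 0.96 in water and 0.93 to 1.04 in late high pools. The part of these in the differences of the astrocyte genes was not tested.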

How the data were processed

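Total RNA of male ICR mouse hypothalamus (RIN of 8 or higher per the labels) was labeled with Cy3 and hybridized to Agilent Whole Mouse Genome 4 × 44 K arrays. The authors deposited scanner output with background-corrected signal intensity per spot on a linear scale, made with Agilent Feature Extraction (version 10.5.1.1 per the file headers). The authors also deposited a table of the same signal intensity per probe, used as an alternative. From each log2 signal the 75th percentile over an array's 43379 non-control spots was subtracted. Spots marked as outliers, or whose signal was below 2 times its noise, were left out, and repeat spots of 1 probe averaged. The probe with the highest mean stood for a gene. A probe was tested with values on over 50% of the arrays of each group compared.

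limma 3.58.1 (R 4.3.3) compared alcohol with water in a fit of 2 groups and the other comparisons in a fit of 4, with Benjamini-Hochberg adjustment over all probes. Single genes were also tested by exact permutation. Symbols came from the files, and from RefSeq for 25263 probes whose accession matched. Of the other lists, the 2 genes with the lowest p in the F test were named, since none passed an adjusted p of 0.05. A few items that these rules select, 1 of the Gfap probes among them, are not reported here. The members, lists and rules were chosen with earlier results of these data known. The steps were tested on simulated data. No pair of arrays had identical values. Alternatives covered scaling, background, filters, slide, scan day, the replicate number as a block, the probe, array weights, the methods' t-test and each array left out. Figures were drawn with matplotlib 3.10.9.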

Additional observations from a re-analysis of the deposited data

Results flagged for a closer look

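In S100b, low pool 3 stood apart from the other 8 alcohol pools. Its value of 5.28 was the highest of the 9, and its gap to the next pool was 0.595 of the whole range of the 9 pools, above the critical value of 0.493 of Dixon's test. Chance flags about 1 in 20 groups, and 16 sets of pools were tested here (the 9 alcohol and the 6 high pools of each of the 8 genes). Without low pool 3, S100b was 0.11 lower in alcohol than in water.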

How the results depend on the processing

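The count of astrocyte genes past an adjusted p of 0.05 was 0 in each of the 7 comparisons under every alternative run, including each array left out, except high against low with array weights, where it was 3. The F test was not run with array weights, other samples in the fit or the replicate block. With the replicate number as a block the count was 0 in the other 6 comparisons; the numbers did not pair the pools, since same-numbered pools correlated at -0.091 to 0.18, and Glul in late high against water had an unadjusted p of 0.0428 under the block. Over all probes, calls in low against water ranged from 0 to 7463 (57 as reported), in high against low from 0 to 12748 (24), in late high against water from 0 to 1374 (0), in early high against water from 0 to 205 (0), in late against early high from 0 to 194 (0), in alcohol against water from 0 to 4 (0), and in the F test from 0 to 1611 (2). The highest counts came with array weights in the first 3, with other samples in the fit for early high against water, without early high pool 3 for late against early high, with slide as a fixed block for alcohol against water and without low pool 1 in the F test; without 1 array, low against water reached 2511 and high against low 2510, both without low pool 1, and late high against water 403 without late high pool 3. The methods' t-test of alcohol against water gave S100b an unadjusted p of 0.0471 and no gene an adjusted p under 0.05.

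Signs of several differences depended on the setting, that of Glul among them, with an unadjusted p above 0.05 under each setting that turned a sign; the cause was not tested. For alcohol against water, slide or scan day as a fixed block gave Gfap 0.10, Aqp4 -0.043, Slc1a2 -0.20, Slc1a3 -0.0098 and Glul -0.14; slide as a random block Gfap 0.010 and Slc1a2 -0.019; array weights Gja1 -0.0088; the mean of all probes Slc1a3 -0.0014; and quantile normalization Slc1a3 -0.00011. For late high against water, slide gave Slc1a2 -0.066 and Glul -0.17; scan day Aqp4 -0.0087, Slc1a2 -0.22 and Glul -0.089; array weights Gfap -0.012; the mean of all probes Gfap -0.11; normexp Gfap -0.031; and no scaling S100b 0.013. For late against early high, slide gave Slc1a2 0.063 and S100b 0.013; no scaling Slc1a2 0.11 and S100b 0.15; and the mean of all probes Gfap -0.079 and Aqp4 -0.033. With 1 array left out, alcohol against water ran from -0.13 to 0.054 for Gfap, -0.035 to 0.067 for Slc1a3 and -0.020 to 0.041 for Gja1. Late high against water ran from -0.090 to 0.13 for Gfap. Late against early high ran from -0.013 to 0.20 for Gfap, -0.058 to 0.13 for Aqp4, -0.096 to 0.022 for Slc1a2, -0.031 to 0.0076 for S100b and -0.016 to 0.13 for Glul. The brightest probe of each of the 8 genes was well above background on all 12 arrays, a further Slc1a2 probe on 5 and the other Vim probe on 0.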
